A study of Homo sapiens with 16 samples.

Results

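CTCF binding was compared between MCF10A cells and G12V cells, the same line carrying the oncogenic G12V form of HRas, through the peak lists of 4 ChIP-seq libraries, 2 of each cell type. These lists held 71164 of the 76863 peaks in the 8 peak lists of the series, which also covered p53. Because the lists differed in length, the peaks of each list were ranked by their −log10 q value and the best 11346 were kept, which is the length of the shortest list, so that 45384 peaks entered the comparison. Peaks of different libraries that overlapped by at least 1 bp were joined to 1 site. MCF10A-specific and G12V-specific sites are those with a peak in both libraries of that cell type and in neither library of the other.

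MCF10A is a non-tumorigenic, immortalized line of human mammary epithelium. The labels name the first group Parental and the second H-RAS Gv12, and both were grown in a medium with EGF, insulin, hydrocortisone, cholera toxin and horse serum. The G12V cells came from lentiviral transduction with an HRas overexpression vector. The study's methods also describe a GFP vector, and the labels do not say whether the cells labelled Parental carried it. The study's methods call the replicates of a cell type biological, and neither they nor the labels say which step was repeated, so p-values measure the spread between these libraries. The protocol text shared by all libraries names only the p53 antibody, whereas the antibody label of these 4 libraries is anti-CTCF.

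CTCF is a zinc-finger protein that recognizes a long, directional DNA motif. It insulates enhancers from promoters and, by halting cohesin, anchors the bases of chromatin loops and the borders of topological domains. Most of its sites are held by many cell types, and its binding is blocked at some sites by methylation of CpG dinucleotides in the motif.

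The reference sequences under the peaks that the results turn on are shown first. Each is the stretch of the GRCh37 (hg19) reference around a CTCF core motif, with the 12-bp core in capitals and 20 bp on either side. The match with the fewest mismatches around the peak summit was taken, and the leftmost of equal ones. Sequences read 5′ to 3′ on the strand of the motif. They are named by the protein-coding gene whose transcription start site (TSS) is nearest. The core was searched on both strands with at most 1 mismatch in the 150 bp around each summit. In the 4 libraries it was found at 59.3 to 65.7% of the kept peaks, and at 1.26 to 1.46% of windows of the same length 2 kb beside them. A match is a description of the letters and not a measured contact. The first 3 sequences are the motif-bearing sites of best rank among the MCF10A-specific sites, all with 1 mismatch.
DOK7, intron, chr4:3482395-3482446, minus strand: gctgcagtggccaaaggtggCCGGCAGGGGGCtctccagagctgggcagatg
RTP2, intergenic, chr3:187432352-187432403, minus strand: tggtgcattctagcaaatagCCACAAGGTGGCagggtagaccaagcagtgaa
ZNF469, intergenic, chr16:88321044-88321095, plus strand: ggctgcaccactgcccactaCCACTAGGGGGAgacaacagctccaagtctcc
The next 3 are the motif-bearing sites of best rank among the G12V-specific sites, without mismatch at UQCRFS1 and TPTE and with 1 at PDK2.
UQCRFS1, intergenic, chr19:29124803-29124854, minus strand: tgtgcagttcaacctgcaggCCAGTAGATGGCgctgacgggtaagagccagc
TPTE, intergenic, chr21:11109154-11109205, minus strand: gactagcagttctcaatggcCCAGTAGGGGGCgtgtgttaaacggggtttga
PDK2, promoter, chr17:48171785-48171836, plus strand: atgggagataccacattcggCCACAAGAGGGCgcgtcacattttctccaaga
These 3 are the motif-bearing sites of best rank among those of all 4 libraries, and they need not be typical of shared sites.
FMN2, intergenic, chr1:240139819-240139870, minus strand: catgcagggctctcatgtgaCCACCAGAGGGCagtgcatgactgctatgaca
RP11-685N3.1, intergenic, chr2:91815185-91815236, plus strand: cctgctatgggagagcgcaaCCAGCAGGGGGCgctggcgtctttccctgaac
TMEM141, coding exon, chr9:139686445-139686496, minus strand: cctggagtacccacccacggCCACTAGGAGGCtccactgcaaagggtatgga
The following pair are the motif-bearing sites with peaks in all 4 libraries that had the lowest p for higher enrichment in G12V (SLC35F2) and for lower enrichment in G12V (FANCL).
SLC35F2, intron, chr11:107787460-107787511, plus strand: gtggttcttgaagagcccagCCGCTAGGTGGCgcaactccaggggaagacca
FANCL, intergenic, chr2:58675312-58675363, minus strand: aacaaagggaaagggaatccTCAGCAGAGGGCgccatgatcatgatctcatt
The last 3 lie in the genes or regions with the largest differences in peak number and were chosen after those values were seen.
NTM, intron, G12V-specific, chr11:131564873-131564924, plus strand: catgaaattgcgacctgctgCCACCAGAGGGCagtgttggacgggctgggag
RBFOX1, intron, G12V-specific, chr16:5540741-5540792, minus strand: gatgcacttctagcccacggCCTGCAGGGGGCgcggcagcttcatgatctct
HTT, intron, MCF10A-specific, chr4:3108484-3108535, plus strand: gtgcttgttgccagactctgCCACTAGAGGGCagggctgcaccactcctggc
The core ran on the plus strand at 49.1% of the 3765 motif-bearing sites shared by all 4 libraries, at 47.6% of 361 MCF10A-specific ones and at 51.4% of 323 G12V-specific ones. Its centre lay a median of 21, 21 and 23 bp from the summit in the 3 classes, and it matched without mismatch at 40.1%, 35.7% and 35.6% of them.

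The libraries differed in strength more by replicate number than by cell type, and this touches every comparison that follows. The 11346 kept peaks were 100% of the first MCF10A list, 56.3% of the second, 94.5% of the first G12V list and 41.0% of the second. A calling depth of 10.68 to 13.51 M (mega) reads a library was recovered from the peak statistics. It need not equal the aligned reads, which the study lists as highest for the first MCF10A library. The median fold enrichment over the local background of the kept peaks was 7.1 for MCF10A replicate 1, 11.6 for MCF10A replicate 2, 7.29 for G12V replicate 1 and 15.3 for G12V replicate 2. In the same order, the median peak height was 18.8, 33.3, 19.9 and 43.1 reads, and values are given in this order throughout. Both replicate 2 libraries were thus the stronger ones, and −log10 q at the last kept peak was 14.94 and 25.72 there against 1.43 and 3.81 in replicates 1.

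Most CTCF sites were not particular to either cell type. The equal lists gave 17490 sites. Peaks were found in all 4 libraries at 5475 of these (31.3%), 3905 in exactly 3 and 4527 in exactly 1. The MCF10A-specific sites numbered 642 (3.67%) and the G12V-specific sites 620 (3.54%). Pairs of libraries from different cell types also shared sites of their own. The replicate 2 libraries of both cell types alone shared 804 sites and the replicate 1 libraries 633, while the remaining pairs held 466 and 418. Of the sites of either library, 58.3% were shared between the MCF10A replicates and 52.2% between the G12V replicates, against 59.0% between the replicate 2 libraries, 56.3% between the first MCF10A and second G12V library, and 53.4% and 50.3% between the other pairs. The share of the replicate 2 libraries, which cross the cell types, was thus above that of the replicates of either cell type. At the 8006 sites with a peak in all 4 deposited lists, Spearman's rho of fold enrichment was 0.22 and 0.20 within cell types and 0.15 to 0.27 between them, a description over sites that share depth and base composition.

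**Figure D1:**
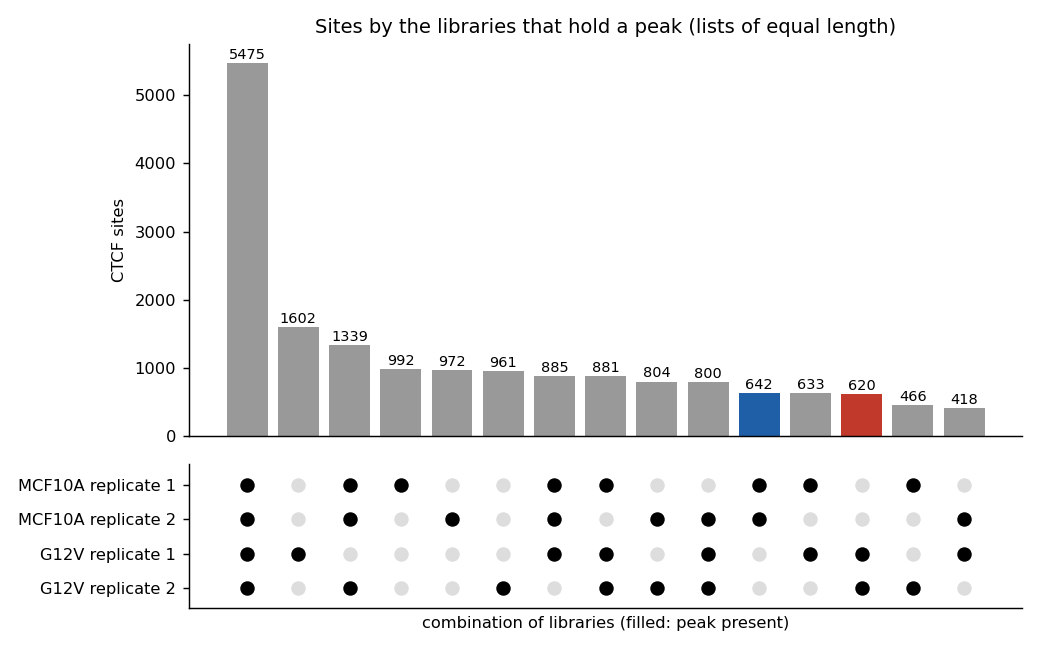
Number of merged CTCF sites (vertical axis, bars) for each combination of libraries with a peak (filled dots), in lists of 11346 peaks each, with the MCF10A-specific sites in blue and the G12V-specific sites in red. Their bars, at 642 and 620, lie between the 804 sites of the replicate 2 pair and the 418 and 466 sites of the mixed pairs.

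A site absent from the equal lists of a cell type was often present at lower rank in its full lists. Lower rank holds within a list, and peak strength was not compared between the lists over these classes. Of the 642 MCF10A-specific sites, 618 (96.3%) had a peak below the kept part of a deposited G12V list and 24 had none. Of the 620 G12V-specific sites, 444 (71.6%) had a peak below the kept part of a deposited MCF10A list and 176 had none. All 444 of those peaks were in the second MCF10A library, since the first list was kept whole. The full lists of the second libraries held 20136 peaks in MCF10A and 27678 in G12V, and the part of these lengths in the unequal shares was not tested. Among the 176 sites, 81 (46.0%) carried the core motif, 3 lay in promoters and 15 were on the long arm of chromosome 17 (17q). Among the 444, 242 (54.5%) carried the motif and 33 were on 17q. With the full lists in place of the equal ones, 76 sites were MCF10A-specific and 969 G12V-specific. When a class needed only 1 library of a cell type or the absence from only 1, the numbers were 1527 to 1983 and 1420 to 2232.

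Of 5 features of the peak sets that were tested, 4 overlapped between the cell types. Promoters, taken as 1000 bp before to 500 bp after a TSS, held 10.5% and 9.77% of the MCF10A peaks and 9.98% and 8.80% of the G12V peaks. The means were 10.1% ± 0.486 and 9.39% ± 0.835 (SD, n = 2 libraries each), and the values overlapped (exact two-sided permutation test, p = 0.667, adjusted p = 1.0 over 5 features). With 2 libraries against 2 this test allows 6 assignments and no p below 0.333. Intergenic sequence held 47.2% and 47.8% in MCF10A and 46.8% and 48.0% in G12V (exact permutation p = 1.0, adjusted p = 1.0). These shares, too, overlapped. Outside the 5 tested features, introns held 37.2% and 37.7% against 38.0% and 38.8% of the peaks, and 84.5% and 83.3% against 83.0% and 82.5% lay within 100 kb of a TSS. Neither of these overlapped between the cell types.

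The core motif lay under 63.6% and 65.1% of the MCF10A peaks and under 59.3% and 65.7% of the G12V peaks. The means were 64.3% ± 1.04 and 62.5% ± 4.47 (SD, n = 2 each; exact permutation p = 1.0, adjusted p = 1.0), and the low value was that of the first G12V library alone. Without that library the difference turned from −1.83 to 1.34 percentage points. Mean GC content of the 150 bp around the summit was 57.5% and 56.3% against 57.4% and 55.9% (exact permutation p = 0.667, adjusted p = 1.0), lower in replicate 2 of both cell types.

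AP-1, the dimer of FOS and JUN proteins that acts at the end of the RAS-MAPK cascade, has the motif TGACTCA or TGAGTCA, which was searched on both strands and does not overlap the CTCF core in its letters. It was found at 1.77% and 1.76% of the MCF10A peaks and at 1.72% and 1.69% of the G12V peaks. The groups did not overlap, the difference was −0.0617 percentage points, and the exact permutation p was 0.333, the smallest possible (adjusted p = 1.0). In windows 2 kb beside the peaks the motif was more frequent, at 2.15% and 2.3% in MCF10A and 2.46% in each G12V library. AP-1 letters were therefore rarer under CTCF peaks than beside them in every library. GC content was 55.9 to 57.5% under the peaks and 46.2 to 47.1% beside them, and its part in this was not tested.

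**Figure D2:**
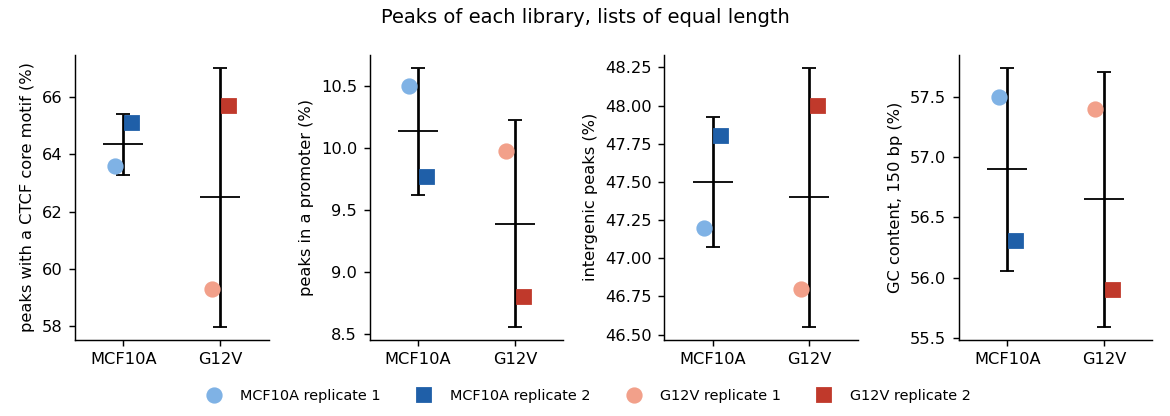
Share of peaks (percent, vertical axes, not starting at 0) with the CTCF core motif, in promoters and in intergenic sequence, and mean GC content, for each of the 4 libraries (points), with the mean (horizontal line) and SD (vertical bar) of the 2 libraries of each cell type. The points of MCF10A and G12V overlap in all 4 panels, and the first G12V library is the lowest in motif share, at 59.3%.

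The cell-type-specific sites differed from the shared sites in several respects, and so did sites particular to pairs of libraries from different cell types. All intervals here are exact 95% binomial intervals and cover counting error only. Sites of all 4 libraries carried the core motif in 68.8% of cases (67.5 to 70%), MCF10A-specific sites in 56.2% (52.3 to 60.1%) and G12V-specific sites in 52.1% (48.1 to 56.1%). The motif was thus less frequent in both specific classes than in the shared sites, and it was found at 63.6% of the sites of the replicate 2 pair and 57.2% of those of the replicate 1 pair.

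The G12V-specific sites lay farther from TSSs. Introns held 42.6% of them (38.7 to 46.6%) against 36.6% of both the MCF10A-specific and the shared sites. Intergenic sequence held 48.2% of the G12V-specific, 45.6% of the MCF10A-specific and 47.9% of the shared sites. Promoters held 5.32% of the G12V-specific sites (3.69 to 7.39%), against 11.7% (9.3 to 14.4%) of the MCF10A-specific sites and 10.5% (9.7 to 11.3%) of the sites of all 4 libraries. The median distance to the nearest TSS was 36585 bp for the G12V-specific, 19924 bp for the MCF10A-specific and 20727 bp for the shared sites. The same split was seen between the pairs of equal replicate number, where promoters held 5.1% (3.68 to 6.85%) of the replicate 2 sites and 11.7% (9.29 to 14.5%) of the replicate 1 sites, with median distances of 33417 and 18416 bp. Library strength and cell type therefore both moved with promoter content, and the part of strength in the G12V-specific value was not tested. GC content averaged 54.0% in the G12V-specific, 55.6% in the MCF10A-specific and 58.6% in the shared sites, and CpG dinucleotides numbered 3.67, 5.0 and 6.15 per 150 bp. CpG content was thus lowest in the G12V-specific class of these 3, and lower still, at 3.18, in the replicate 2 pair. The AP-1 motif was found at 1.77% of the G12V-specific sites (0.889 to 3.15%) and 3.06% of windows 2 kb beside them, and at 1.09% of the MCF10A-specific sites (0.439 to 2.23%) and 1.56% beside them.

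The MCF10A-specific sites of best rank were spread over the genome. The sites at DOK7, which encodes an adaptor of the neuromuscular synapse, and at HTT, which encodes huntingtin, both lay on the short arm of chromosome 4 (4p). The DOK7 site had folds of 15.1 and 18.6 in the MCF10A libraries, no peak in the first G12V list, and a fold of 13.1 at rank 12265 in the second G12V list, just outside the kept part. The HTT site had folds of 9.7 and 21.0 in MCF10A and of 6.1, at rank 20829, in the second G12V library. These sites were therefore weaker rather than absent in that library. The site of lowest rank sum, in an intron of RFTN2, which encodes a lipid raft protein, had no core motif and folds of 9.4 and 19.4, with 7.5 in the second G12V library. Only 2 of the 10 leading sites had no peak in either full G12V list. They lay in an intron of PEX14, a part of the peroxisomal import machinery, with folds of 9.4 and 19, and 128329 bp from the TSS of ZNF469, with folds of 11.5 and 15.6. At RAB11A, which encodes a GTPase of recycling endosomes, both G12V libraries had weaker peaks, with folds of 12.1 and 15.8 in MCF10A against 4.2 and 6.2. The other leading sites were near RTP2, SLC1A4, TTBK1 and ZNF618, and all 4 had a weaker peak in the second G12V library, with folds of 6.1 to 10.2.

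Of the 10 leading G12V-specific sites, 6 had no peak in either full MCF10A list. The site of lowest rank sum was on 19q, 579226 bp from the TSS of UQCRFS1, which encodes the iron-sulfur subunit of respiratory complex III. Its folds were 16.2 and 32.9, at ranks 205 and 274 of the G12V lists. The second, near TPTE, lay on the short arm of chromosome 21, next to its centromere, with folds of 8.8 and 12.9 at ranks 128 and 732. Sequence next to centromeres is repeated, so the position of this peak is uncertain. Next came a site 14610 bp from the TSS of SMARCD2, a subunit of the SWI/SNF chromatin remodeller, with folds of 12.3 and 22.8 and without the core motif.

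PDK2, a kinase that restrains pyruvate dehydrogenase, had the only promoter site among these 10, at 319 bp upstream of its TSS. Its folds were 10.6 and 23.5 in G12V, and 4.5 at rank 15955 in the second MCF10A library. Both the SMARCD2 and the PDK2 site were on 17q. An intronic site of RBFOX1, which encodes a neuronal splicing regulator, had folds of 10.3 and 16.9 and no MCF10A peak. The sites near WDR72 and STXBP6 likewise had none, with folds of 15.4 and 19.3 at WDR72 and 10.7 and 24.9 at STXBP6. The remaining sites, at GHRHR, KCNMA1 and GRM8, had weaker peaks in the second MCF10A library with folds of 4.1 to 6.7.

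The best-ranked sites of all 4 libraries were near FMN2, RP11-685N3.1, TMEM141, LBR and GPRIN2. The FMN2 site, 115310 bp from the TSS of this actin nucleator, had folds of 18.3 and 38.1 in MCF10A and 17.9 and 36.3 in G12V, at ranks 8, 1, 13 and 6. Folds were nearly equal between the cell types within a replicate number. At TMEM141 they were not, with 13.2 and 26.9 in MCF10A and 30.9 and 40.9 in G12V, although the ranks were 29, 17, 2 and 14. The site of LBR, which encodes the lamin B receptor, had folds of 14.2 and 20.7 against 14.4 and 19.8. The GPRIN2 site ranked 55, 2, 4 and 8 without a core motif. At RP11-685N3.1 the ranks were 18, 6, 5 and 4, with folds of 7.6 and 16.8 against 8.3 and 15.3. These folds were lower than those of the FMN2 site in every library. This site lies at the centromere end of 2p, 1276798 bp from the nearest TSS, so its position is uncertain, as at TPTE.

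Enrichment was then compared at the 8006 sites with peaks in all 4 deposited lists, using limma on quantile-normalized log2 fold enrichment. None of these sites passed an adjusted p of 0.05 (0.0% called), with a lowest adjusted p of 0.72. At an unadjusted p under 0.05 there were 419 sites (5.23%), 203 of them higher in G12V. The median absolute log2 difference was 0.31 and the median SE 0.46, so differences of the typical size were within the spread between libraries. The lowest p values in either direction are given as measurements. All of them have a limma adjusted p of 0.72.

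An intronic site of SLC35F2, a solute carrier, had folds of 6.8 and 6.4 in MCF10A and 15.9 and 29.5 in G12V, a log2 difference of 1.48 (SE 0.43). The groups did not overlap there, and the ranks were 5367 and 13993 against 217 and 430. The sites at ELAC2, which encodes a tRNA-processing nuclease, and C11orf96 had log2 differences of 1.42 (SE 0.44) and 1.51 (SE 0.46), each with both G12V folds above both MCF10A folds. The site in an intron of SGSM1 had 1.51 (SE 0.45), with folds of 3.4 and 13.3 against 13.5 and 30.2. The site named for C11orf58, in an intron of PLEKHA7, had 1.43 (SE 0.45).

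In the other direction, a site 206806 bp from the TSS of FANCL, a ubiquitin ligase of the Fanconi anaemia pathway, had folds of 12.8 and 21.4 in MCF10A and 5.2 and 5.9 in G12V, a log2 difference of −1.72 (SE 0.46). This was the lowest p of all the sites, and the groups did not overlap. The RAB11A site, one of the MCF10A-specific sites above, had a log2 difference of −1.61 (SE 0.48). A pair of promoter sites followed. At CCDC124 the folds were 14.7 and 14.6 against 4.2 and 7.7, a log2 difference of −1.58 (SE 0.47), and at IL18R1, the receptor chain for interleukin 18, they were 12.8 and 18.1 against 4.5 and 9.4, a difference of −1.45 (SE 0.46). Neither promoter site carried the core motif. At UBE2V1, a partner of ubiquitin-conjugating enzymes, the folds were 9.0 and 29.9 against 5.6 and 8.0 (log2 difference −1.46, SE 0.45).

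**Figure D3:**
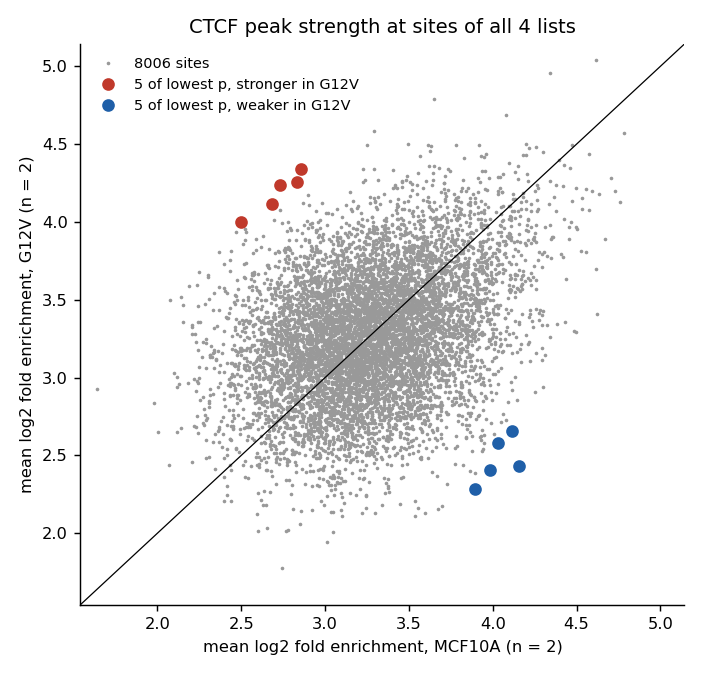
Mean quantile-normalized log2 fold enrichment in G12V (vertical axis) against MCF10A (horizontal axis) at the 8006 sites with peaks in all 4 deposited lists (grey points, means of 2 libraries), with the line of equality and the 5 sites of lowest p in each direction in red (higher in G12V) and blue (lower). The grey points spread widely on both sides of the line, with a median absolute difference of 0.31, and no site passed the adjusted threshold.

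Along the chromosomes, the peak numbers of the equal lists differed most on 17q. The first and second MCF10A libraries had 471 and 436 peaks there, and the G12V libraries 564 and 545. The groups did not overlap, and the log2 difference was 0.29 (SE 0.05, limma adjusted p = 0.135), with 0.26 between the replicate 1 libraries and 0.32 between the replicate 2 libraries. Of 41 arms tested, limma called none at an adjusted p of 0.05 (0.0%), and 4 at an unadjusted p under 0.05, 3 of them higher in G12V. Both G12V libraries lay above both MCF10A libraries on 6 arms (14.6%) and below on 8 (19.5%), so that a lack of overlap was common among arms. With the replicate number as a block the 17q difference passed (limma adjusted p = 0.000442), and with the full lists it was 0.13 (adjusted p = 0.963). With lists of 5673 peaks it passed at 0.42 (SE 0.12, adjusted p = 0.0173).

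The local background under the peaks of 17q moved in the same direction as the peak number. At the 378 sites of 17q with a peak in all 4 deposited lists, the mean log2 background relative to the library's mean over all such sites came to −0.12 and −0.09 for the MCF10A libraries, against 0.26 and 0.21 for the G12V libraries, a difference of 0.34. Over the 41 arms this difference ranged from −0.12 to 0.34, and 17q was the highest. Mean log2 peak height, relative to the library in the same way, differed by 0.27 on 17q. The median difference in quantile-normalized log2 fold enrichment was 0.04, on another scale, so that it is not the difference of the other values. Both reads in the peaks and reads around them were thus higher on 17q in G12V, relative to each library's mean. What this background owes to DNA copy number was not tested. The specific sites come from the same lists as these peak numbers and are not a separate observation. On 17q lay 48 G12V-specific (7.74%) and 7 MCF10A-specific sites (1.09%), against 4.86% of the sites of all 4 libraries.

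Of the 4 arms next in size of difference, 9p and Xq were higher in G12V and 4p and 7p lower. Arm 9p had 121 and 122 peaks against 138 and 142 (log2 difference 0.2, SE 0.07, limma adjusted p = 0.472), with a background difference of 0.13. Xq had 167 and 161 against 189 and 182 (0.18, SE 0.07, limma adjusted p = 0.472), with a background difference of −0.10. On Xq the background therefore did not move with the peaks. On 4p there were 135 and 138 against 117 and 113 peaks (−0.25, SE 0.07, limma adjusted p = 0.412) with a background difference of −0.02. Arm 7p had 217 and 235 against 185 and 207 (−0.21, SE 0.08, limma adjusted p = 0.502) with 0.09. The groups overlapped on none of the 4 arms. Over all 41 arms, the peak number difference had a Pearson's r of 0.28 and a Spearman's rho of −0.02 with the background difference, and of 0.69 and 0.55 with the peak height difference. The differences of replicate 1 and of replicate 2 had an r of 0.62 and a rho of 0.48. These are descriptions over arms measured in the same libraries.

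**Figure D4:**
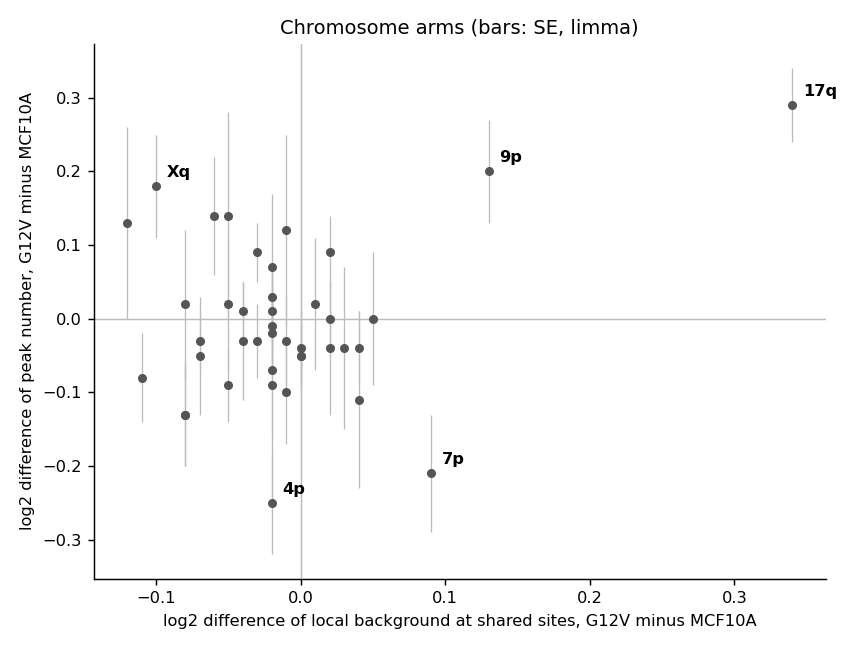
Log2 difference in CTCF peak number between G12V and MCF10A (vertical axis, bars: SE from limma) against the log2 difference in local background at sites with a peak in all 4 deposited lists (horizontal axis), each point a chromosome arm. Arm 17q stands at 0.29 in peak number and 0.34 in background, while 4p, at −0.25 in peak number, has a background difference of −0.02.

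Windows of 10 Mb placed these differences more closely. None of the 277 windows passed the adjusted threshold in limma (0.0% called, lowest adjusted p 0.45), and 17 had an unadjusted p under 0.05, 11 of them higher in G12V. Both G12V libraries lay above both MCF10A libraries in 36 windows (13.0%) and below in 44 (15.9%). On chromosome 17 the differences were largest between 50 and 80 Mb. The window of 50 to 60 Mb had 32 and 40 peaks against 51 and 54 (log2 difference 0.55, background difference 0.73), that of 60 to 70 Mb 41 and 48 against 51 and 67 (0.39, background 0.47), and that of 70 to 80 Mb 119 and 107 against 173 and 152 (0.52, background 0.52). The window of 30 to 40 Mb, on the same arm, had 98 and 79 against 103 and 93 peaks and a background difference of −0.08. In the windows from 50 to 80 Mb the groups of peak numbers did not overlap and the background was higher in G12V. The background was higher from 40 to 50 Mb as well, by 0.32, where the peak numbers of 141 and 117 against 145 and 139 overlapped (0.14). The window from 80 to 81.2 Mb had 9 and 10 against 13 and 9 peaks, which overlapped too. At the tip of 9p, from 0 to 10 Mb, there were 34 and 32 peaks against 46 and 46 (0.47, background 0.43).

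By size alone, the 5 largest window differences were mostly in windows of few peaks. Those of chromosome 4 from 100 to 110 Mb, with 10 and 18 against 4 and 12 peaks (log2 difference −0.89, SE 0.61), and of chromosome 15 from 20 to 30 Mb, with 12 and 8 against 22 and 11 (0.64, SE 0.42), overlapped between the groups. The window of 70 to 80 Mb on chromosome 3 had 14 and 13 against 8 and 8 (−0.72, SE 0.23), and that of 30 to 40 Mb on chromosome 18 had 20 and 17 against 27 and 30 (0.61, SE 0.14). The fifth was the tip of 4p, from 0 to 10 Mb, with 68 and 62 against 45 and 35 peaks (−0.70, SE 0.15). At the 37 sites there with a peak in all 4 deposited lists, the background difference was −0.01 and the peak height difference −0.22. The median difference in quantile-normalized log2 fold enrichment was −0.31. All 5 had limma adjusted p values of 0.45 to 0.778.

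The tip of 4p and a stretch of 19q were looked at again, with borders chosen after their values were seen, so no test is given. From 0 to 4 Mb on chromosome 4 there were 28 and 27 peaks in MCF10A and 7 and 4 in G12V, whereas from 4 to 10 Mb there were 40 and 35 against 38 and 31. The deficit thus lay in the outer part. That part held 16 MCF10A-specific sites, DOK7 and HTT among them, no G12V-specific site and 2 sites of all 4 libraries. In the full lists it held 28 and 40 peaks in MCF10A and 7 and 36 in G12V, so the second G12V library had most of these peaks below its 11346 best. Since the first G12V list had only 7 peaks there, few of the sites behind the 4p background differences can lie in this part. The median background under the full-list peaks there was 1.2 and 1.4 reads in MCF10A and 1.0 in each G12V library.

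On 19q, from 28 to 30 Mb, neither MCF10A library had a peak in the equal lists and each G12V library had 7. The full lists held 0 and 2 against 9 and 22, and 4 of the sites were G12V-specific, the UQCRFS1 site among them. From 30 to 34 Mb the numbers were 23 and 18 against 24 and 22 and overlapped. The median background under the full-list peaks was 1.9 reads in the second MCF10A library and 2.2 and 1.9 in G12V. The window of 20 to 30 Mb, with 0 and 0 against 9 and 8 peaks, fell under the minimum mean of 10 peaks and was not tested. Without that minimum it was the one window called by limma, with a log2 difference of 4.17 (SE 0.23, adjusted p = 0.0262), and with the full lists it was again the one called, with 3.8 (SE 0.61, adjusted p = 0.000116). Both values depend on the 0.5 peaks added before the logarithm, since the MCF10A libraries had no peak in the equal lists.

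At genes, peaks were counted from 10 kb before to 10 kb after the gene body. A peak was found at 9783 of 20090 protein-coding genes. Both G12V libraries had more peaks than both MCF10A libraries at 396 genes (4.05%) and fewer at 498 (5.09%), and the gap was at least 2 peaks at 23 and 14 of these. This balance depended on the list length, since the full lists gave 484 genes with more and 49 with fewer. Without any 1 library the counts were 939 to 1404 and 1186 to 1378, as a gene then needs to differ from fewer libraries. Of the 396 genes, 57 were on 17q, where 11.1% of 513 genes had more peaks and 1.95% fewer. On 4p, 20 of 103 genes (19.4%) had fewer. On 9p 10 of 114 genes (8.77%) had more, and on 18q 10 of 82 (12.2%).

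The largest gap was at NTM, which encodes neurotrimin, a neuronal cell adhesion protein of the IgLON family. Each MCF10A library had 1 peak at the gene and the G12V libraries had 11 and 12. The peaks fell on 15 sites, all in introns of this 966 kb gene on 11q, of which 7 were G12V-specific, 4 of these with the core motif, and 1 was in all 4 libraries. The full lists gave 1 and 3 peaks against 13 and 21, so the gap was present without the length limit as well. The median background under these full-list peaks was 2.5 and 2.0 reads in MCF10A and 2.2 and 2.0 in G12V. With 1 and 3 peaks against 13 and 21, these medians do not compare the same sites.

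RBFOX1, on 16p, had no peak in either MCF10A list, equal or full, and 8 and 5 in the G12V lists, or 9 and 18 in the full ones. All 10 of its sites were intronic, 3 were G12V-specific, and 2 of those 3 carried the core motif. CSMD1, which encodes a large membrane protein with complement-control domains, had 3 and 4 against 10 and 8 peaks, and in the full lists 3 and 6 against 10 and 15. ASIC2, which encodes an acid-sensing ion channel of neurons, had 4 and 3 against 10 and 10, with 6 G12V-specific sites. It lies on 17q, in the window of 30 to 40 Mb, whose background difference at shared sites was −0.08. The median background under its full-list peaks was 1.2 and 1.1 reads in MCF10A and 2.0 and 1.9 in G12V. These medians rest on 4 and 6 against 11 and 16 peaks and do not compare the same sites. These 4 genes, the largest gaps, are all very long, from 966 kb at NTM to 2474 kb at RBFOX1, and the larger gaps can arise only where several sites lie in 1 gene.

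The other 6 genes by gap in this direction were shorter. LGR6, an R-spondin receptor of the WNT pathway, had 5 and 5 against 7 and 7 peaks. ADORA1, which encodes the adenosine A1 receptor, had 3 and 2 against 5 and 5. Both genes lie on 1q. LINGO1 had 1 and 1 against 5 and 3 peaks, RORA, a nuclear receptor gene, 1 and 1 against 4 and 3, ASIC4 2 and 1 against 4 and 4, and AATK, a kinase gene of 17q, 1 and 1 against 3 and 3. At LINGO1, RORA and ASIC4 the full list of the second MCF10A library held 5, 6 and 4 peaks, as many as the lower G12V library or more, so that these groups were no longer apart once the list was not shortened.

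Among genes with fewer peaks in G12V, GRK4, a kinase of G protein-coupled receptors, and HTT, its neighbour on 4p, each had 3 and 3 peaks in MCF10A and none in the G12V lists. These neighbours share peaks that lie within 10 kb of both. All 3 sites at each gene were MCF10A-specific and 2 carried the core motif. In the full lists the second G12V library had 3 peaks at GRK4 and 2 at HTT, and the first had none. TACC3, which encodes a spindle protein, had 4 and 3 against 1 and 1, and CFAP99 2 and 2 against none, both on 4p. CRMP1, which encodes a mediator of semaphorin signalling, and the overlapping EVC, a gene of ciliary hedgehog signalling, shared their counts of 3 and 3 against 1 and 1, also on 4p. In all, 6 of the 10 genes were on 4p.

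The other 4 were CXCL17, a chemokine gene with 5 and 5 against 3 and 3 peaks, ROR2, the gene of a WNT5A receptor, with the same counts, FAM167A with 3 and 3 against 0 and 1, and ADRA1D, an adrenergic receptor gene, with 3 and 2 against none. For all 10 genes the second G12V library held peaks in its full list. At ROR2 these were 9, above the 5 and 7 of the full MCF10A lists.

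**Figure D5:**
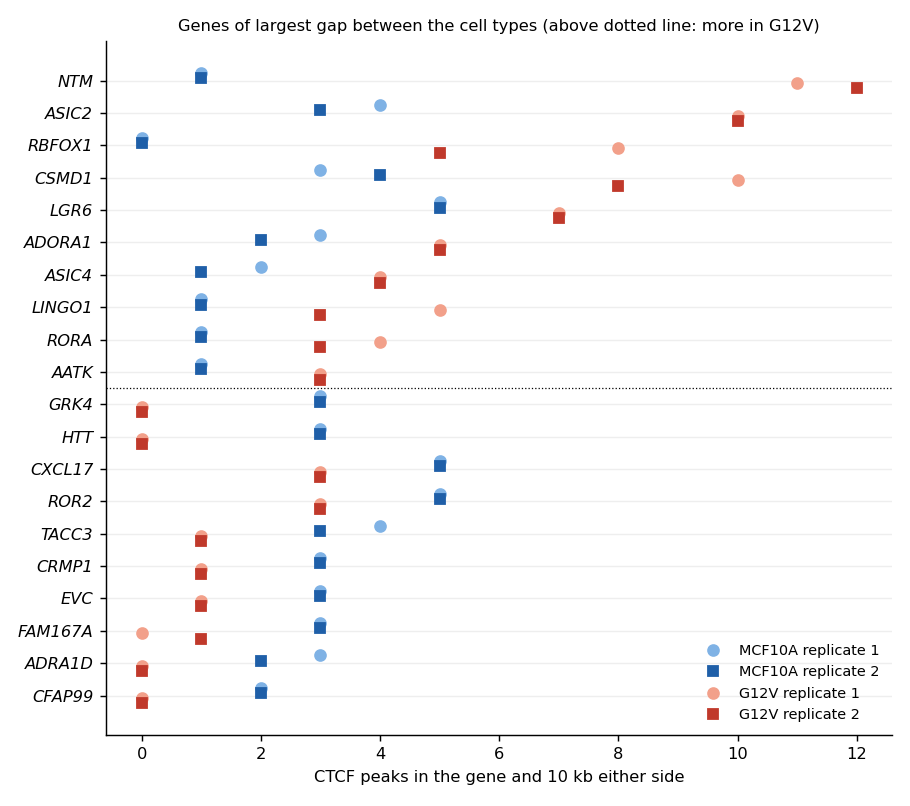
Number of CTCF peaks within 10 kb of the gene body (horizontal axis) in each of the 4 libraries (points), for the 10 genes with the largest gap in each direction. NTM has 1 peak in each MCF10A library against 11 and 12 in G12V, and HTT and GRK4 have 3 in each MCF10A library against none in G12V.

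Gene lists for the biology of this transformation were counted in the same way, against the backgrounds of 4.05% and 5.09% of all genes with a peak. The lists are small, so that 1 gene moves a share by several points. Every list member named below as differing without overlap had counts that overlapped once the full lists were used. Among 23 targets of RAS-MAPK signalling, 10 had a peak, none had more in G12V, and only PLAUR, the urokinase receptor gene, had fewer, with 1 and 1 against 0 and 0. In the full lists the second G12V library had 3 peaks at PLAUR. Of 13 AP-1 family genes, 8 had a peak and none differed without overlap. Of 12 genes of the EGF receptor family and its ligands, 8 had a peak. ERBB3, a coreceptor of ERBB2, had none in MCF10A and 1 and 1 in G12V, and NRG1, its ligand gene, had 4 and 5 against 2 and 3. Their full-list counts were 0 and 2 against 1 and 2 at ERBB3, and 4 and 8 against 3 and 9 at NRG1.

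Basal epithelial genes had the highest share of members with fewer peaks in G12V among the 11 lists. Of 19 basal epithelial genes, 10 had a peak, and 3 of these (30%) had fewer in G12V, namely SFN, a 14-3-3 protein gene, LAMB3, a laminin-332 chain gene, and ITGA6, the α6 integrin gene. Each had 2 and 2 peaks against 1 and 1. In the full lists the first G12V library still had 1 peak at each, and the second had 2 at SFN and ITGA6 and 3 at LAMB3. ITGB4, which encodes the partner of the α6 integrin, had more, with 1 and 1 against 2 and 2, and lies on 17q. Of 24 genes of the epithelial-mesenchymal transition, 18 had a peak. ESRP2, an epithelial splicing regulator, had 1 and 1 against 2 and 2, and ZEB1, a repressor of epithelial genes, 1 and 1 against 0 and 0.

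Gene families known for CTCF-dependent architecture mostly had peak numbers that overlapped between the cell types, as did all genes with a peak. Among the latter, 4.05% had more and 5.09% fewer peaks in G12V without overlap. Of 39 HOX genes 31 had a peak, and 28 of these overlapped between the groups. HOXB7, on 17q, had 2 and 2 against 3 and 3, and HOXD13 and HOXD12, at 1 end of their cluster, 2 and 2 against 1 and 1. Of 54 clustered protocadherin genes 42 had a peak and 39 overlapped. Many of these genes lie over one another and share the same peaks, so they are not separate counts. The 3 with more in G12V, PCDHB16, PCDHB9 and PCDHB10, are neighbours that share 1 site, with none against 1 and 1. Of 18 imprinted genes 10 had a peak, and PLAGL1 alone differed without overlap, with 2 and 3 against 1 and 1. At the imprinted pair H19 and IGF2, the textbook case of CTCF insulation, H19 had 0 and 1 against 0 and 0 peaks and IGF2 5 and 2 against 3 and 1, which overlapped.

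Among 15 genes of cohesin and CTCF itself, 8 had a peak. The CTCF gene had 1 and 2 against 2 and 2, and CTCFL, its germline paralogue, 1 and 1 against 2 and 2. Of 10 cell cycle inhibitor genes 6 had a peak and none differed without overlap. CDKN2A, which encodes p16 and ARF, and its neighbour CDKN2B had no peak in any of the 4 lists, equal or full. Whether this locus is intact in these cells was not tested. Of the 6 genes that the study profiled by 4C, 3 had a peak, and all 3 overlapped between the groups.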

How the data were processed

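CTCF ChIP-seq was measured in 2 libraries of parental MCF10A cells and 2 of G12V cells. Per the study's methods, the authors aligned reads with Bowtie to hg19, kept unique alignments, and ran MACS2 with its default settings on each library against an input. Which input served which list is not given in the sources used here. The deposited lists hold the fold enrichment at the summit (a ratio), −log10 p and −log10 q values, and a score. Peak height and local background in reads were recovered from fold and −log10 p. On 2000 simulated peaks the background was recovered within 2% for 91.5% and within 25% for 99.1%. Lists were ranked by −log10 q (column 9), cut to 11346 peaks and merged at 1 bp of overlap.

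Contexts came from GENCODE release 44 mapped to GRCh37. Arms needed a mean of 20 peaks and windows a mean of 10. limma 3.58.1 in R 4.3.3, with trend, was fitted to log2 fold or to log2(peaks + 0.5), with Benjamini-Hochberg adjustment at 0.05. Library values were compared by exact permutation, enumerated directly in Python 3.11.15 with pandas 2.3.3. SciPy 1.17.1 gave the binomial intervals, and sequences were read with samtools 1.23.1. Scripts were tested on simulated data. The members, gene lists and tests were chosen with earlier results of these data known.

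Named in the text are the 5 sites of lowest p in each direction of the enrichment comparison, the 10 sites of smallest rank sum in each specific class and the 5 in all 4 libraries, the 10 genes of largest gap in each direction, list members without overlap, and the 5 arms and 5 windows of largest difference. Other windows, the 0 to 4 Mb and 28 to 30 Mb regions, further list genes (H19, IGF2, CTCF, CDKN2A and CDKN2B) and the NTM, RBFOX1 and HTT sequences were chosen after their values were seen. Alternatives changed the list length, ranking, merging, windows, motif mismatch, filters, pseudocount, normalization and block, and left out each library. The p53 peaks were not analysed here.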

Additional observations from a re-analysis of the deposited data

How the results depend on the processing

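Without cutting the lists to equal length, MCF10A-specific sites fell in number from 642 to 76, G12V-specific sites were 969 in place of 620, and genes with fewer peaks in G12V were 49 in place of 498. Leaving out 1 library, where the class then needs only the library left, gave 1527 to 1983 and 1420 to 2232 specific sites, and 939 to 1404 genes with more and 1186 to 1378 with fewer peaks. With no flank around genes these were 252 and 267, and with 50 kb flanks 788 and 948. The difference in intergenic share of −0.141 points ranged from −0.740 to 0.458 without 1 library, turning positive without the second MCF10A library (0.159) or the first G12V library (0.458). The motif difference of −1.83 points ranged from −4.99 to 1.34, the last without G12V replicate 1. The GC difference of −0.273 points ranged from −0.987 to 0.442, turning positive without the first MCF10A library (0.312) or the second G12V library (0.442). In lists of 5673 peaks the AP-1 difference turned to 0.0529 points, and 3 arms were called higher in place of 0 (17q, 9p and 18p). With the replicate number as a block, 1 arm was called higher, 17q, and no other call changed. Same-numbered libraries deviated together with r = 0.70 over 41 arms and r = 0.03 over 8006 sites, and with only 2 pairs and no label of a shared batch the numbers were not taken as pairs. Windows called higher were 1 in place of 0 with the full lists and 1 without the minimum of peaks. The 17q difference stayed positive under all its alternatives (0.13 to 0.42). The lists of the first library of each cell type end nearest to the calling threshold, with the lower median enrichment and the greater calling depth, and the cause of these changes was not tested.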
